A study of Homo sapiens with 21 samples.

Results

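A group of 346 circular RNAs (circRNAs) was read in NCI-H1975 lung cancer cells and in neither NL20 nor PC-9 cells. They are the circRNAs with at least 1 read in each of the 3 NCI-H1975 libraries and no read in the 3 NL20 and 3 PC-9 libraries. Of the 124082 circRNAs in the table, 348 met this rule, and hsa_circ_6671 and hsa_circ_1242 were left out of the group by the rule. The 346 members were 3.57% of the 9685 circRNAs read in all 3 NCI-H1975 libraries. The choice used the counts of these 9 libraries, so the presence of the members in NCI-H1975 and their absence from NL20 and PC-9 are its terms and not results.

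The study sequenced purified circular RNA from 21 libraries in 7 groups of 3. NL20 is an immortalized, nontumorigenic bronchial epithelial line, and served as the control from normal lung. The lung cancer lines PC-9 and NCI-H1975 carry the label EGFR mutant, and gefitinib and osimertinib are inhibitors of the EGFR kinase. PC-9 was sequenced without a resistance code and as gefitinib-resistant cells kept in 1 µM gefitinib. Of NCI-H1975 there were cells with neither a resistance nor a plasmid code, osimertinib-resistant cells kept in 1 µM osimertinib, cells transfected with the plasmid pCMV6 and cells transfected with FASN, which encodes fatty acid synthase. The transfected cells were selected with 50 µg/ml G418. The last 3 groups, which did not enter the rule, are called the derived groups here, and "NCI-H1975" alone means the cells without a code. The labels do not say whether a resistant or transfected line was 1 clone or a pool, nor whether libraries of the same group were grown as separate cultures. P-values therefore measure the spread between libraries, which may be technical. Osimertinib-resistant and transfected cells differ in resistance, drug, plasmid and G418 together, and these cannot be told apart.

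A circRNA forms when the splicing machinery joins the end of an exon to the start of an exon upstream of it, which leaves a closed loop. Having no free ends, circRNAs resist exonucleases and can outlast the linear RNA of the same gene. Their levels follow the transcription of the host gene and the choice between linear splicing and back-splicing, so the circRNAs of a cell line differ with its expressed genes. A circRNA is recognised by reads across its back-splice junction, and counts are low because only those reads can be used. The table names circRNAs by numbers of its own and pairs them with no gene, position or sequence, so no host gene, function or sequence is given here. For the same reason the labelled lines and the FASN transfection were not checked against marker genes.

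Library totals ran from 95808 to 203079 reads. A count of 0 over the 3 libraries of a group allows a level of up to 3 counts, which is 5.59 CPM of all reads in NL20 and 6.97 CPM in PC-9 (CPM, counts scaled to a common library size). The counts themselves were small. In the 3 NCI-H1975 libraries together a member had between 3 and 130 reads, with a median of 8 and quartiles of 5 and 12. Only 34 members had 20 reads or more, and the 10 most abundant held 18.6% of the members' 3871 reads. Limits and folds against 0 cover only the counting error of the 0, so "at least" leaves out the error of the group with reads. PCR copies of a molecule cannot be told from separate molecules without identifiers and are not covered either. Osimertinib-resistant replicate 2 had the fewest distinct circRNAs of all libraries, 15244 against 18494 to 30198 in the others. Its total of 110456 reads was the same as that of pCMV6 replicate 1, though the counts of these libraries differed in 26167 circRNAs. Some values are also given without osimertinib-resistant replicate 2.

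At the edges of the rule the numbers were as follows. The 17 members with exactly 1 read in each NCI-H1975 library were the weakest inside it. Just outside lay 1594 circRNAs that were read in 2 of the 3 NCI-H1975 libraries and in no NL20 or PC-9 library, with a median of 3 reads and at most 23. Another 214 were read in all 3 NCI-H1975 libraries and had a single read in NL20 or PC-9, with a median of 7 NCI-H1975 reads and at most 166.

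The most abundant member, hsa_circ_16334, had 33, 33 and 64 reads in the NCI-H1975 libraries. It was kept in all derived groups, with 40, 36 and 41 reads in FASN cells, 51, 42 and 33 in pCMV6 cells and 32, 16 and 43 in osimertinib-resistant cells. On the TMM-scaled CPM scale used from here on it stood at 441.0 ± 101.4 in FASN, 515.8 ± 77.0 in pCMV6 and 305.4 ± 114.1 in osimertinib-resistant cells (SD, n = 3). The osimertinib-resistant libraries all lay below the pCMV6 libraries, while their range overlapped that of FASN. In such bulk libraries fewer expressing cells and less RNA per cell cannot be told apart.

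The counts of hsa_circ_19353 were 16, 47 and 33 in NCI-H1975, 36, 54 and 34 in FASN, 25, 14 and 26 in pCMV6 and 32, 24 and 20 in osimertinib-resistant cells. Its FASN libraries were the highest of the derived groups on the CPM scale, at 449.8 ± 33.8 against 267.1 ± 80.1 in pCMV6 and 263.0 ± 67.0 in osimertinib-resistant cells. hsa_circ_6670, numbered next to the left-out hsa_circ_6671, had NCI-H1975 counts of 11, 31 and 45 and FASN counts of 23, 19 and 21. It had 27, 14 and 27 in osimertinib-resistant cells and 1, 15 and 10 in pCMV6 cells, so pCMV6 replicate 1 stood far below the other libraries. hsa_circ_16336 fell in a narrower range, with NCI-H1975 counts of 29, 28 and 26, then 12, 17 and 15 in FASN, 18, 15 and 17 in pCMV6 and 11, 8 and 16 in osimertinib-resistant cells. None of these 4 had a read in gefitinib-resistant PC-9 cells.

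hsa_circ_17514 was kept in each derived group, with 12, 20 and 15 reads in FASN, 13, 15 and 16 in pCMV6 and 34, 6 and 27 in osimertinib-resistant cells, against 16, 19 and 26 in NCI-H1975. Its osimertinib-resistant libraries spread widely, from 6 reads in replicate 2 to 34 in replicate 1. For hsa_circ_17520 the counts were 9, 23 and 29 in NCI-H1975, 11, 21 and 1 in FASN, 3, 7 and 2 in pCMV6 and 13, 10 and 14 in osimertinib-resistant cells. Its FASN libraries spanned both the highest and the lowest levels of the derived groups. hsa_circ_11719 had 14, 18 and 16 reads in NCI-H1975 and was read in all derived libraries, from 2 reads in osimertinib-resistant replicate 1 to 16 in FASN replicate 2. hsa_circ_25917 reached 6, 18 and 17 reads in NCI-H1975 cells and 15, 10 and 10 in FASN cells, but 0, 1 and 10 in pCMV6 and 2, 3 and 0 in osimertinib-resistant cells. The other members of the 10 most abundant, hsa_circ_11721 and hsa_circ_39344, differed most between the derived groups and are described with the tests.

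**Figure D1:**
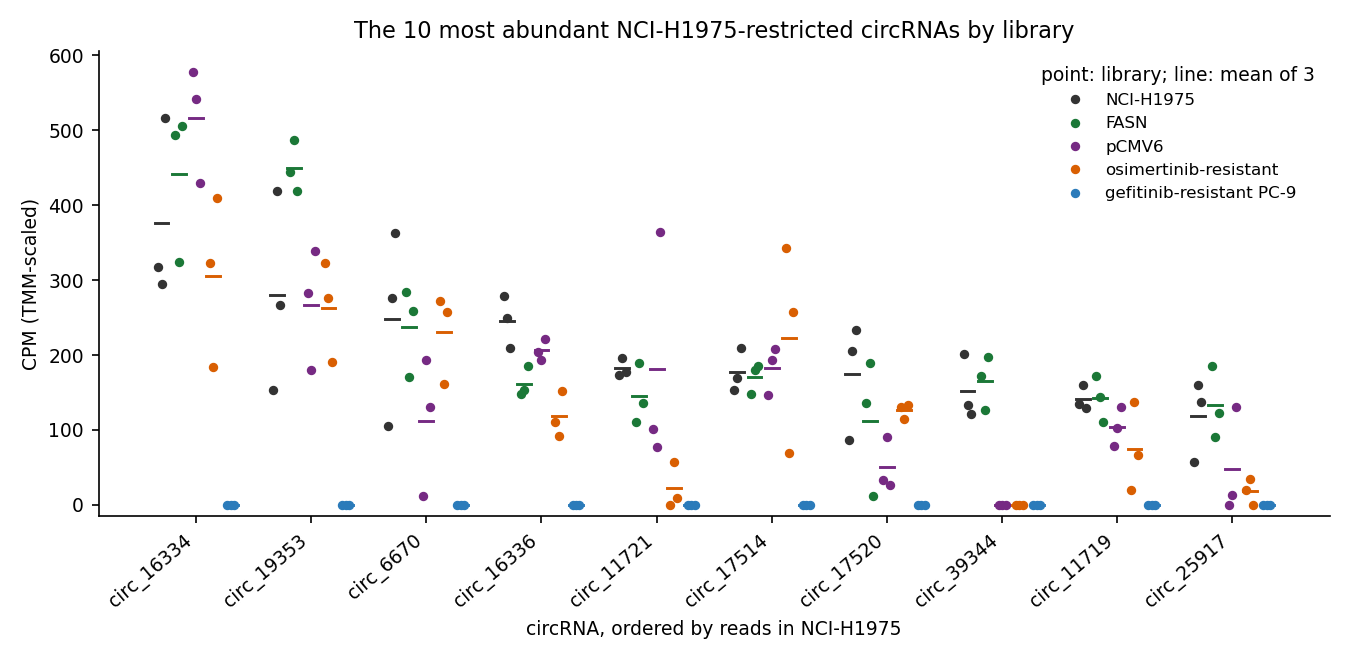
Levels of the 10 most abundant members in CPM (TMM-scaled), 1 point per library and a line at the mean of 3, in NCI-H1975, the derived groups and gefitinib-resistant PC-9. All 10 are at 0 in gefitinib-resistant PC-9, and hsa_circ_39344 is at 0 in pCMV6 and osimertinib-resistant cells while it stands at 165.3 ± 36.2 CPM (SD, n = 3) in FASN cells.

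Retention in the other NCI-H1975 groups was first counted as any read. FASN cells had a read of 275 members (79.5%), pCMV6 cells of 243 (70.2%) and osimertinib-resistant cells of 238 (68.8%). In all 3 libraries of the group, 98 members were read in FASN, 67 in pCMV6 and 58 in osimertinib-resistant cells. A read in at least 1 library of each derived group was found for 168 members, and 28 had none in any derived library. The 28 members read in all 9 derived libraries had a median of 23 NCI-H1975 reads, from 7 to 130. The 28 read in none had a median of 6, from 3 to 17. Led by hsa_circ_94378, with 3, 4 and 10 NCI-H1975 reads, and hsa_circ_95962, with 2, 3 and 7, the latter group had no circRNA with over 17 reads.

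**Figure D2:**
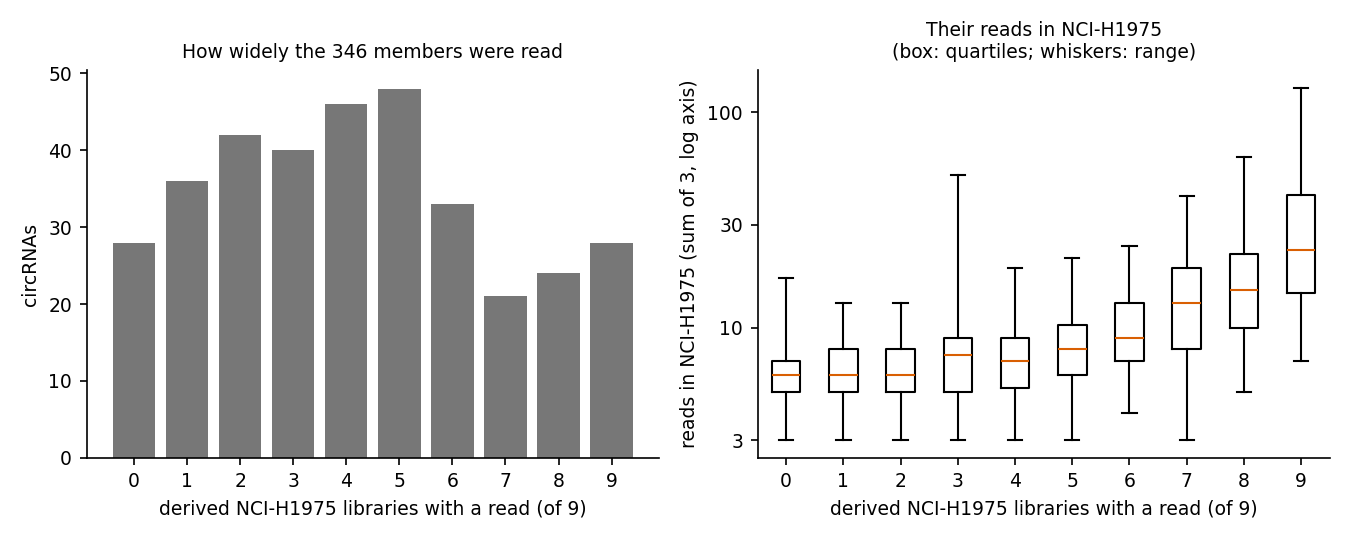
Left, the number of members by how many of the 9 derived libraries held a read, from 28 members with none to 28 with all 9. Right, their summed reads in the 3 NCI-H1975 libraries on a log axis as boxes (quartiles, with whiskers over the range), whose medians run from 6 reads for members read in no derived library to 23 for those read in all 9.

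Because the libraries differed in depth, each was also set to 95808 reads, the smallest total, by the expected number of members that would keep a read. The FASN libraries then held 50.6% ± 1.25 of the members (SD, n = 3), pCMV6 42.9% ± 1.92 and osimertinib-resistant cells 38.1% ± 4.33. Every FASN library, from 49.7% to 52.0%, lay above every pCMV6 library, from 41.0% to 44.9%, and above every osimertinib-resistant library, from 33.8% in replicate 2 to 42.5% in replicate 1. The pCMV6 and osimertinib-resistant ranges overlapped. The same order was seen outside the group. The other circRNAs read in all 3 NCI-H1975 libraries were found at 79.2% ± 0.900 in FASN, 74.9% ± 0.315 in pCMV6 and 71.8% ± 5.96 in osimertinib-resistant cells (SD, n = 3), again with no overlap between FASN and pCMV6. In exact two-sided permutation tests of 3 libraries against 3, which cannot give a p below 0.1, the p was 0.1 for FASN against pCMV6 (7.65 percentage points), 0.1 for osimertinib-resistant against FASN (-12.4 points) and 0.2 for osimertinib-resistant against pCMV6 (-4.77 points). After adjustment over the 7 permutation tests made, these exact p-values were 0.14, 0.14 and 0.2, so no difference passed 0.05. The FASN minus pCMV6 difference was 2.29 points when at least 2 reads were required. Without osimertinib-resistant replicate 2, the difference from pCMV6 was -2.61 points, and it was -1.35 points in counts as deposited.

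The members' presence in NCI-H1975 was a term of the rule, so NCI-H1975 cannot be set beside the derived groups directly. The rule was therefore applied to 2 NCI-H1975 libraries, and the left-out library of the same group was read at equal depth. With replicate 1 left out, 855 circRNAs were chosen and 35.0% of them were read in replicate 1. With replicate 2 left out it was 31.7% of 924, and with replicate 3 left out 33.1% of 853. The FASN libraries held 32.4% to 35.0%, 31.2% to 33.0% and 31.0% to 33.1% of these sets. The left-out NCI-H1975 library lay inside the FASN range with replicate 2 left out, and in the other sets it lay above the highest FASN library by less than the rounding of these values. The pCMV6 libraries held between 25.9% and 28.9%, and the osimertinib-resistant libraries between 20.2% and 28.5%. Each pCMV6 and osimertinib-resistant library thus lay below the left-out NCI-H1975 library in each set, a difference that was not tested with 1 left-out library a set.

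**Figure D3:**
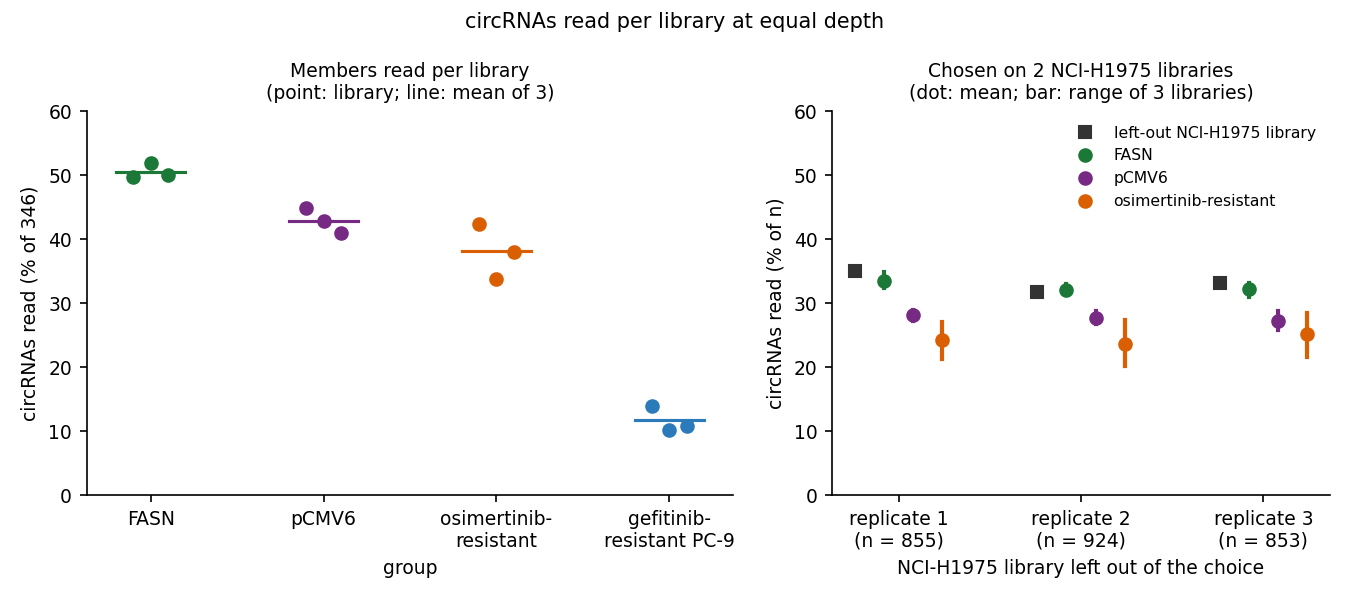
Left, the percentage of the 346 members read in each library at equal depth (points) with the mean of 3 (lines). Right, the same for circRNAs chosen on 2 NCI-H1975 libraries, with the left-out NCI-H1975 library as a square and the mean and range of 3 libraries for each derived group; the squares, at 35.0%, 31.7% and 33.1%, lie inside the FASN range (replicate 2) or at its upper end (replicates 1 and 3), and above the pCMV6 and osimertinib-resistant ranges.

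Retention was highest for the members most abundant in NCI-H1975. Of the 74 members with at least 13 NCI-H1975 reads, 84.5% ± 2.16 were read in a FASN library at equal depth, 76.8% ± 2.49 in a pCMV6 library and 65.9% ± 7.22 in an osimertinib-resistant library (SD, n = 3). For the 116 members with 8 to 12 reads these shares were 52.3% ± 1.05, 41.6% ± 1.87 and 35.7% ± 3.04. For the 111 with 5 to 7 reads they were 32.4% ± 3.44, 26.4% ± 4.18 and 29.6% ± 7.56, and the spreads of the 3 groups overlapped. The 45 members with 3 or 4 reads were read at 35.1% ± 5.72 in FASN and 31.3% ± 2.15 in pCMV6 libraries. In osimertinib-resistant libraries they stood at 20.0% ± 1.31, below the pCMV6 value by more than the spread of either. circRNAs with 8 to 12 NCI-H1975 reads that were not members, 2087 in all, were read more widely, at 68.5% ± 2.11 in FASN, 62.1% ± 0.595 in pCMV6 and 58.4% ± 6.82 in osimertinib-resistant libraries. The same order of members below other circRNAs held in the other 3 abundance classes and each derived group. No test was run on it, and in the class of at least 13 reads the other circRNAs were more abundant, with a median of 27 reads against 19. The rule also demanded no NL20 or PC-9 read of the members. The other circRNAs, apart from those left out by the rule, had at least 1, so this order is not free of the choice.

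The summed level of the members was compared as their share of a library's reads. It was 0.665% ± 0.0365 in FASN, 0.618% ± 0.0266 in pCMV6 and 0.506% ± 0.0133 in osimertinib-resistant cells (SD, n = 3), beside 0.847% ± 0.0173 in NCI-H1975, where the rule raised it. The osimertinib-resistant libraries, from 0.491% to 0.515%, all lay below the pCMV6 libraries, from 0.603% to 0.649%, and below the FASN libraries, from 0.635% to 0.706%. The exact permutation p was 0.1, the smallest possible, for both comparisons and 0.2 for FASN against pCMV6, or 0.14, 0.14 and 0.2 after adjustment over the 7 tests. A single circRNA outside the group, hsa_circ_11052, singled out after its values were seen, took between 6.98% and 11.4% of the reads in osimertinib-resistant libraries and between 2.94% and 3.02% in pCMV6 libraries. With its reads left out of the totals, an alternative also chosen after seeing the data, the osimertinib-resistant minus pCMV6 difference was -0.0826 percentage points against -0.112 with them. It was -0.0494 for members with at least 2 reads in each NCI-H1975 library. The FASN minus pCMV6 difference of 0.0467 points was 0.0264 without FASN replicate 1 and 0.0705 with the hsa_circ_11052 reads left out. The mean share of hsa_circ_11052 was 6.05% in FASN and 5.99% in NCI-H1975 libraries.

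Single members were tested between the derived groups, none of which the rule had used. The edgeR quasi-likelihood test was fitted to the whole table, and its filter on low counts kept 73 members, with a median of 17 NCI-H1975 reads. The other 273, with a median of 7, were too rare for it. A member could pass the filter through a derived group where it was high, so the counts below describe the 73 and support no statement on all members. The circRNAs tested as a whole passed this filter through any of the 7 groups and were not matched to the members for abundance.

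FASN cells were compared with pCMV6 cells, the plasmid control. hsa_circ_39344 had 14, 14 and 16 reads in FASN cells and none in any pCMV6 library. NCI-H1975 had 21, 15 and 15 reads of it and the osimertinib-resistant cells none, so its counts in FASN cells were like those in NCI-H1975 while both other derived groups had none. It was higher in FASN than in pCMV6 cells, at least 12.4-fold against a floor of 3 counts over the group (edgeR quasi-likelihood test, Benjamini-Hochberg adjusted p = 0.00348). The call held in 5 of 6 fits with a library left out. Without pCMV6 replicate 1 the edgeR adjusted p was 0.0598. DESeq2 gave an unadjusted p of 5.98e-06 and, through its own filter, no adjusted p. It was the only 1 of the 73 tested members called, beside 0.316% of all 9175 circRNAs tested in either direction and 0.196% higher, and 6 had an unadjusted p under 0.05 (8.22% against 7.95% of all tested). The median log2 change was 0.12 for the members tested and 0.00 for all circRNAs tested. Groups did not overlap for 9 members higher and 9 lower in FASN, 12.3% each, beside 6.43% and 5.57% of all tested.

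The osimertinib-resistant cells were compared with pCMV6 cells and with FASN cells. Both of those were transfected and selected with G418 and the resistant cells were kept in osimertinib, so resistance cannot be told apart from drug, plasmid or G418. hsa_circ_16024 was higher than in pCMV6 cells, with 30, 58 and 27 reads in resistant cells and 6, 3 and 3 in pCMV6 cells. FASN cells had 7, 23 and 12 and NCI-H1975 10, 10 and 12, so that the resistant libraries were the highest of all groups. The log2 change was 3.02 ± 0.66 SE (edgeR quasi-likelihood test, adjusted p = 0.000655). This call rested in part on osimertinib-resistant replicate 2, since leaving it out gave 2.53 on the log2 scale and an edgeR adjusted p of 0.0700.

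hsa_circ_11721 was lower in the resistant cells, with 0, 5 and 1 reads against 9, 6 and 28 under pCMV6 and 9, 21 and 11 under FASN. NCI-H1975 had 18, 22 and 22 reads. The log2 change was -3.02 ± 0.82 SE against pCMV6 (edgeR adjusted p = 0.0173) and -2.73 ± 0.82 SE against FASN (edgeR adjusted p = 0.0386). The call against pCMV6 held in 3 of 6 fits with a library left out, and the edgeR adjusted p was 0.382 without pCMV6 replicate 3, 0.174 without resistant replicate 1 and 0.141 without resistant replicate 3. The call against FASN held in 1 of 6 such fits, the fit without resistant replicate 2, and in the others the edgeR adjusted p lay between 0.0674 and 0.236. The neighbour in number, hsa_circ_11719, had 2, 12 and 7 reads in resistant cells and was not called in either comparison.

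Against FASN cells, hsa_circ_39344 was lower, with no read in the resistant libraries and 44 in FASN, at least 15.9-fold (edgeR adjusted p = 0.000321), and this call held in all 6 fits with a library left out. hsa_circ_2656 had no read in the resistant libraries and 9, 12 and 4 reads in FASN cells, at least 9.03-fold lower (edgeR adjusted p = 0.0216). Leaving out a library kept this call in 1 of 6 fits, the fit without FASN replicate 3. In the other fits, which left out FASN replicate 1 or 2 or a resistant library, the edgeR adjusted p lay between 0.0825 and 0.104. It was kept in pCMV6 cells at 3, 3 and 2 reads and in NCI-H1975 at 6, 10 and 8, and had a single read in gefitinib-resistant PC-9.

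Of the 73 members tested, 1 was called higher and 1 lower against pCMV6, beside 1.06% and 0.774% of all circRNAs tested, and 0 higher and 3 lower against FASN, beside 1.34% and 1.16%. In either direction this was 2 members against pCMV6, beside 1.83%, and 3 against FASN, beside 2.5%. The 3 lower than in FASN were hsa_circ_39344, hsa_circ_2656 and hsa_circ_11721, the last of which DESeq2 called too, while it gave the others no adjusted p. In each comparison 13 members had an unadjusted p under 0.05 (17.8%, against 14.9% and 14.1% of all tested). No member was called higher than in FASN by DESeq2 either, and a fit of those 6 libraries alone called 1. The median log2 change of the members tested was -0.71 against pCMV6 and -0.51 against FASN, while that of all circRNAs tested was 0.00 and -0.01. Groups did not overlap for 18 members lower in the resistant cells than in pCMV6 (24.7%, beside 7.98% of all tested) and for 8 higher (11.0%, beside 7.63%). Against FASN these were 16 lower (21.9%, beside 9.4%) and 2 higher (2.74%, beside 7.92%). All circRNAs tested are no matched background, so these shares and medians do not show a trait of the members. Many of the 73 also belong to the largest run of identifier numbers described below, and may not vary separately.

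**Figure D4:**
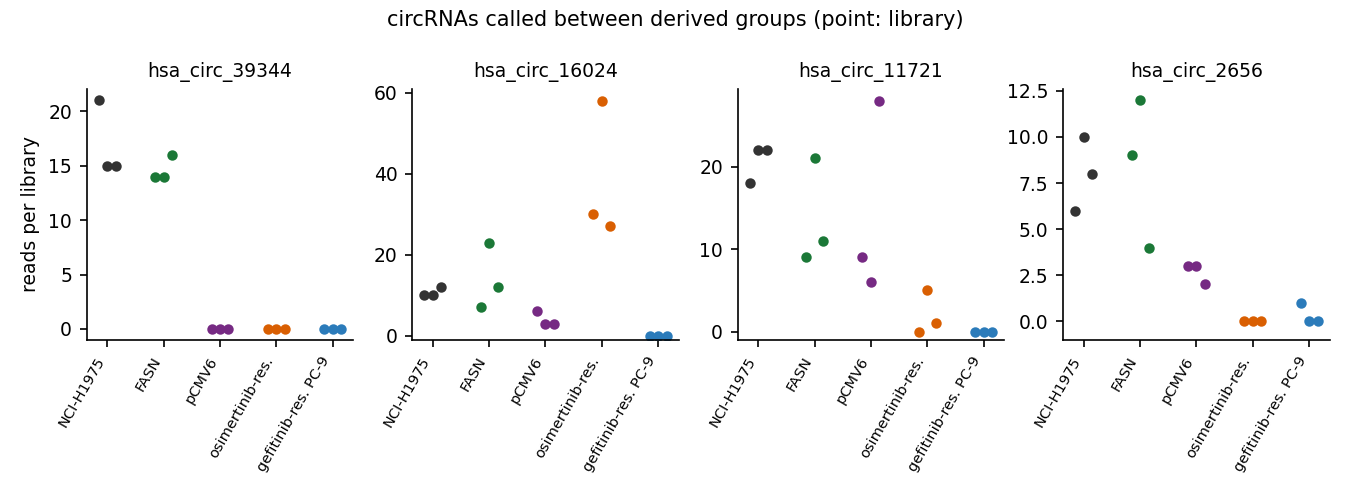
Reads per library of the 4 members called between derived groups, 1 point per library, with NCI-H1975 and gefitinib-resistant PC-9 alongside. hsa_circ_39344 has 14 to 21 reads in each NCI-H1975 and FASN library and 0 elsewhere, and hsa_circ_16024 has its 3 highest counts, 27, 30 and 58, in osimertinib-resistant cells.

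Presence in all libraries of a group and absence from another was then counted over all 346 members. In all 3 FASN libraries and no osimertinib-resistant library, 17 members were read (4.91%), beside 1.31% of the 9685 circRNAs read in all 3 NCI-H1975 libraries. The reverse held for 0 members, beside 0.268%, and no test was run on these counts. For FASN against pCMV6 there were 12 members (3.47%, beside 1.24%) and 1 in the reverse direction, beside 0.207%. In all pCMV6 and no osimertinib-resistant library 4 members were read, beside 0.65%, and 4 the other way, beside 0.795%. Members and background were not matched for abundance. At least 13 NCI-H1975 reads were found for 74 of the 346 members and for 5476 of the 9339 other circRNAs. Rarer circRNAs are more easily absent from 3 libraries, so these shares do not show a trait of the members. Besides hsa_circ_39344, the member with the most reads elsewhere and none in pCMV6 cells was hsa_circ_40912, with 4, 5 and 9 reads in FASN and 0, 8 and 5 in osimertinib-resistant cells. Absent from FASN cells were hsa_circ_10532, with 10, 0 and 5 reads in resistant and 6, 0 and 1 in pCMV6 cells, and hsa_circ_25590, with 7, 0 and 6 and 0, 2 and 0. Both of these had no read in osimertinib-resistant replicate 2.

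Reads in gefitinib-resistant PC-9 cells, which the rule had not used, bear on how far the members are restricted to NCI-H1975. A read was found for 95 of the 346 members (27.5%), and 251 had none in any of these 3 libraries. The name "NCI-H1975-restricted" therefore does not hold for all members against the resistant PC-9 cells. Against NL20 and PC-9 without a resistance code it only restates the rule, up to the limit of 3 counts a group. Most of the 95 were rare there, as 63 were read in 1 library alone, 25 in 2 and 7 in all 3, and 35 had 3 reads or more. The libraries held 52, 40 and 42 members, and without replicate 1 the number with a read was 64. The members took 0.0713% ± 0.0174 of the reads in these libraries (SD, n = 3).

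The members with the most reads in gefitinib-resistant PC-9 were hsa_circ_8698, hsa_circ_18822 and hsa_circ_36465. hsa_circ_8698 had 1, 2 and 9 reads, most of them in replicate 3, hsa_circ_18822 had 4, 2 and 3, and hsa_circ_36465 had 5, 2 and 2. Against the absence from PC-9 that the rule demanded, taken as 3 counts, 12 reads of hsa_circ_8698 amount to 4.97-fold. The 9 reads of each of the others amount to 3.72-fold. This is a description with no test, and the counting error of the 12 and 9 reads is not included. In NCI-H1975 they had 7, 1 and 2 reads, 7, 2 and 10 reads, and 1, 2 and 1 reads in the same order, so hsa_circ_18822 lay above the upper quartile of the members and hsa_circ_36465 below the lower.

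The abundant members were seldom among the 95. Of the 20 most abundant in NCI-H1975, 1 had a read in gefitinib-resistant PC-9, and of the 74 with at least 13 NCI-H1975 reads 10 had one (13.5%). The share was 28.4% for 8 to 12 reads, 35.1% for 5 to 7 and 28.9% for 3 or 4. For comparison, 786 circRNAs were read in all 3 NCI-H1975 libraries and in NL20 but not in PC-9, and 52.4% of them had a read in gefitinib-resistant PC-9. The share was 17.5% among 3738 other circRNAs with at least 3 NCI-H1975 reads and none in NL20 and PC-9, whose reads could lie in 1 library. The members' 27.5% lay between these sets. It was close to the 26.6% of the 1594 circRNAs read in 2 of the 3 NCI-H1975 libraries and in no NL20 or PC-9 library. The 95 members were read in 44.7% ± 4.68 of cases in a FASN library at equal depth and the other 251 in 52.8% ± 0.858 (SD, n = 3). In osimertinib-resistant libraries the shares were 38.0% ± 3.65 and 38.2% ± 4.58.

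PC-9 offers a like set, the 453 circRNAs read in each PC-9 library and in no NL20 or NCI-H1975 library. At equal depth, the gefitinib-resistant PC-9 libraries held 56.5%, 57.7% and 56.5% of that set, while the osimertinib-resistant libraries held 42.5%, 33.8% and 38.1% of the 346 members. The difference was -18.7 percentage points, with no overlap of the libraries and an exact two-sided permutation p of 0.1, the smallest possible, or 0.14 after adjustment over the 7 tests. The sets differed in abundance, with a median of 10 reads over the PC-9 libraries for the PC-9 set and of 8 over the NCI-H1975 libraries for the members. With at least 2 reads in each library of the line required of both sets, the difference was -19.6 points. Without osimertinib-resistant replicate 2 it was -16.6 points. The sides are different circRNA sets in different lines under different drugs, so set, line, drug and resistance cannot be told apart. The permutation p therefore speaks only of the spread between libraries.

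Many members bore neighbouring identifier numbers. In column order, each library opens a block of numbers for the circRNAs it was the first to hold, giving 21 consecutive blocks, and pCMV6 replicate 1 comes first. How numbers were given out within a block is not given in the sources used here. Runs of members were formed, after the data were seen, by joining members no more than 5 numbers apart in a block. This gave 23 runs with 70 members, among them 8 of the 10 most abundant. Of the identifiers within 5 numbers of a member, 5.14% were themselves members, against 0.782% around circRNAs read in all 3 NCI-H1975 libraries.

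The largest run held 21 members between hsa_circ_16311 and hsa_circ_16343, hsa_circ_16334 and hsa_circ_16336 among them. It took 13.4% of the members' NCI-H1975 reads, with 4 to 130 reads a member and a median of 14. The run lay in a stretch of 40 consecutive identifiers, from hsa_circ_16309 to hsa_circ_16348, of which none had a read in any NL20, PC-9 or gefitinib-resistant PC-9 library. The 19 others in the stretch were not members because an NCI-H1975 library lacked a read of them. Among the 19494 circRNAs of the same block, 17.8% had no read in those 9 libraries, and the next longest stretches of such circRNAs were 10 identifiers each. These were hsa_circ_6669 to hsa_circ_6678, around the left-out hsa_circ_6671, and hsa_circ_17511 to hsa_circ_17520, which held 5 members.

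The 21 members were kept in every derived group. Their summed level was 1526 ± 99.5 CPM in FASN, 1674 ± 295 in pCMV6 and 1016 ± 207 in osimertinib-resistant cells (SD, n = 3), beside 1523 ± 187 in NCI-H1975. The osimertinib-resistant libraries, at 1170, 781 and 1096 CPM, all lay below the pCMV6 libraries, at 1980, 1649 and 1392, and the FASN libraries, at 1640, 1458 and 1480. No test was run on this sum, as the run was chosen after its values were seen. All 21 were read in pCMV6 replicate 1, which the numbering requires. This requirement can raise the pCMV6 sum, whose highest library was replicate 1 at 1980 CPM, so the pCMV6 level is not free of the choice. Of the 21 members, 20 were read in at least 6 of the 9 derived libraries. The members whose log2 levels over the 9 derived libraries were most like those of hsa_circ_16334 were hsa_circ_16318 (Pearson r = 0.93) and hsa_circ_16336 (r = 0.85), both of the same run. These were the highest values among all members with a read, computed on log2(CPM + 1), and the libraries shared depth and scaling. hsa_circ_16318 had few reads, 8, 2 and 6 in FASN, 4, 3 and 4 in pCMV6 and 1, 0 and 3 in osimertinib-resistant cells. Its 0 fell in osimertinib-resistant replicate 2, which also had the lowest hsa_circ_16334 count of the derived libraries, 16. The correlations were not computed without that library.

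**Figure D5:**
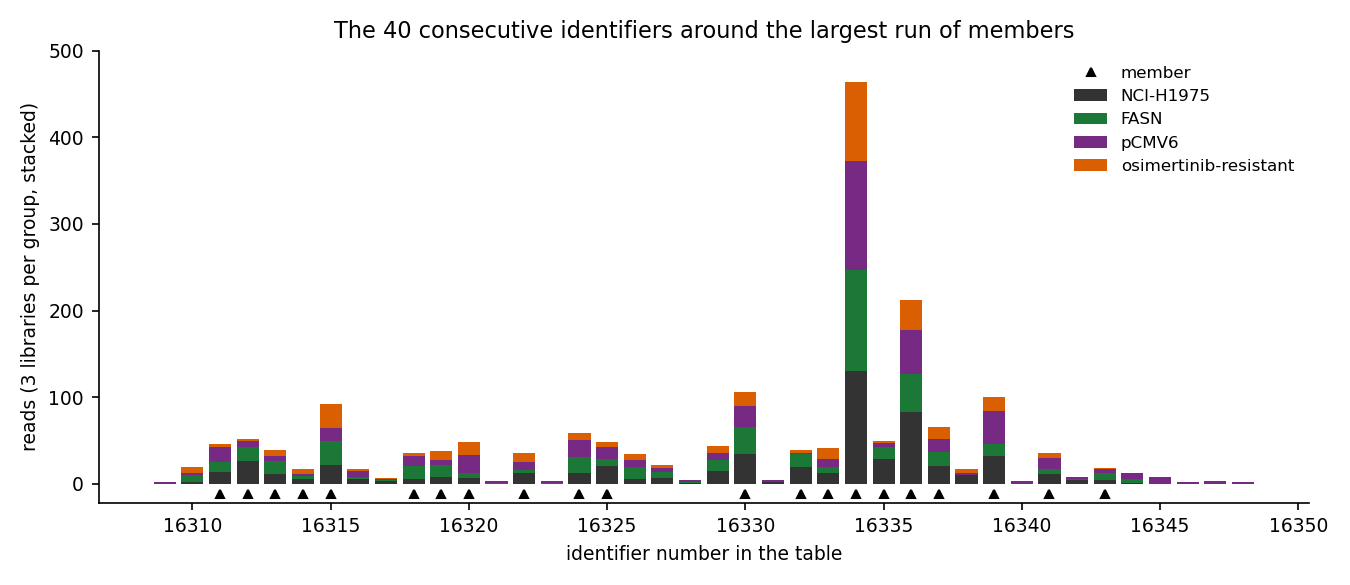
Reads of the 40 consecutive identifiers from 16309 to 16348, summed over 3 libraries a group and stacked for NCI-H1975, FASN, pCMV6 and osimertinib-resistant cells, with triangles at the 21 members. Reads from all 4 NCI-H1975 groups are seen for each member, and hsa_circ_16334 has the tallest bar; NL20, PC-9 and gefitinib-resistant PC-9 are at 0 throughout and are not drawn.

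The second run, hsa_circ_17512 to hsa_circ_17520, held 5 members with a summed level of 635 ± 41.1 CPM in NCI-H1975, 519 ± 115 in FASN, 424 ± 50.0 in pCMV6 and 626 ± 215 in osimertinib-resistant cells (SD, n = 3). Unlike in the largest run, the resistant cells did not lie below the others, with 767 and 734 CPM in replicates 1 and 3 and 379 in replicate 2. A run of 4 members, hsa_circ_27394 to hsa_circ_27400, was lower, at 125 ± 9.46 CPM in FASN, 90.5 ± 90.2 in pCMV6 and 81.9 ± 22.2 in osimertinib-resistant cells. pCMV6 replicate 1 had no read of these 4, as their place in the block of pCMV6 replicate 2 requires. Reads in gefitinib-resistant PC-9 were found for 5 of the 70 members in runs (7.14%) and for 90 of the 276 outside them (32.6%). Of the 23 runs, 19 had no read there. These shares were not tested or matched for abundance, and the runs were formed after the data were seen. Runs held 8 of the 10 most abundant members, and abundant members seldom had a read in gefitinib-resistant PC-9. The shares therefore do not show a trait of the runs.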

How the data were processed

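The authors deposited 1 table of read counts per circRNA, whole numbers without normalization. Per the labels' protocols, column-extracted RNA went to a sequencing provider, which purified the circular RNA and made the libraries. The submitters' processing notes name hg38, HISAT2 and DESeq2. For the circRNA caller and its filters, no statement is given in the sources used here. All 21 columns were matched to samples by name. Totals of 95808 to 203079 reads limit the precision.

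Members were found by the rule on counts. Members and tests were chosen with earlier results of these data known. Counts were fitted in R 4.3.3 with edgeR 4.0.16 (low-count filter filterByExpr, minimum count 5 and minimum total 15, TMM scaling, robust quasi-likelihood fit of 7 group means to 21 libraries). This kept 9175 circRNAs (7.39%), and a called circRNA had a Benjamini-Hochberg adjusted p under 0.05 over all of them. CPM are counts per 1000000 TMM-scaled reads of those circRNAs. Folds against 0 used library totals and 3 counts over the group. Equal depth used the hypergeometric expectation at 95808 reads. Exact permutation tests compared libraries. Alternatives were other filters, scalings, DESeq2 1.42.0, a replicate block, other member rules and each library left out, and the code was tested on simulated data.

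Named were the 10 members with the most NCI-H1975 reads, up to 2 called members a direction, the 3 with the most gefitinib-resistant PC-9 reads, 2 absent from each derived group and from all, and the 2 most like the most abundant. Runs of numbers were chosen after the data were seen.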

Additional observations from a re-analysis of the deposited data

How the results depend on the processing

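The differences between groups kept their direction under the alternatives run. Their permutation p could not fall below 0.05 under any of them, and their sizes moved. Members read at equal depth differed by 2.29 to 11.4 percentage points for FASN minus pCMV6 and by -6.94 to -1.35 for osimertinib-resistant minus pCMV6. The called members were few and changed with the fit, and the cause was not tested. Without the filter on low counts edgeR called 0 members for FASN against pCMV6 (23 at an unadjusted p under 0.05), 1 for osimertinib-resistant against pCMV6 and 1 against FASN. DESeq2, which gave hsa_circ_39344 and hsa_circ_2656 no adjusted p, called 0 for FASN against pCMV6 (6 at an unadjusted p under 0.05) and 1 for osimertinib-resistant against FASN, and a fit of the 6 libraries alone called 1 for osimertinib-resistant against pCMV6. With a library left out, the counts ran from 0 to 1, from 1 to 2 and from 1 to 2 in these comparisons. The count of 0 was the fit without pCMV6 replicate 1, with 8 at an unadjusted p under 0.05.

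Members with a read in gefitinib-resistant PC-9 numbered 65 when at least 2 reads were required and 24 of the 124 members with at least 2 reads in each NCI-H1975 library. With a gefitinib-resistant library left out they ranged from 64 to 79.

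Deviations of same-numbered libraries from their group means had correlations from -0.0306 to 0.0186, and those of differently numbered libraries from -0.0164 to 0.0283. With counts this low the check could miss a pairing, so whether the numbers pair the samples stays undecided. With a replicate block, edgeR called 1, 2 and 3 members, as without it.

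The osimertinib-resistant minus FASN difference in members read at equal depth ranged from -17.1 to -7.10 percentage points over its alternatives, the smallest with NCI-H1975 replicate 3 left out of the choice. Depth limits the single members, since 273 of 346 were too rare to test.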
